A study of Mus musculus with 36 samples.

Results

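The genes described here are 10 transcription factors of the endocrine lineage of the pancreas, *Pdx1*, *Neurog3*, *Neurod1*, *Pax4*, *Pax6*, *Nkx2-2*, *Nkx6-1*, *Mafa*, *Isl1* and *Insm1*, of 20807 protein-coding genes on the autosomes and 55450 genes of any kind in GENCODE vM21. They were chosen by name, and the rule used no measured value, though earlier results of these data were known when they were chosen. For each gene and mouse, K4me3 was taken as the length of K4me3 peaks within 3 kb of any annotated transcription start site (TSS), and K27me3 as the percentage of the gene and 20 kb on either side that lies in K27me3 peaks. K4me3 is trimethylation of lysine 4 of histone H3, found at starts of active or primed genes, and K27me3 is trimethylation of lysine 27, laid down by EZH2 and linked to repression.

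ChIP-Seq for these marks was carried out on whole pancreas of mice aged 2 to 4 months, 22 days after the first tamoxifen gavage, which every genotype received. There were 3 mice in each of 4 genotypes, named here as in the labels. WT mice are labelled wild type, and the study's methods allow C57BL/6 mice or carriers of *Mist1*creERT alone in this group. EZ mice are *Mist1*creERT/+ with EZH2[delta]SET. KR and KE mice are *Mist1*creERT/+ and share a further allele, and KE mice also carry Ezh2[delta]SET, so that EZ against WT and KE against KR mice each compare deletion with intact *Ezh2*. Where WT mice lack *Mist1*creERT, EZ against WT mice also differ in that allele, and this cannot be told apart from the deletion. The floxed *Ezh2* allele loses the exons of its catalytic SET domain, and the Cre is tamoxifen-inducible and sits at the acinar gene *Mist1*. Islet cells are thus not the cells this Cre is meant to recombine, and in bulk tissue fewer cells of a type cannot be told apart from less of a mark per cell.

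Islet cells arise in the embryo from PDX1-positive progenitors that briefly express NEUROG3, a basic helix-loop-helix factor. NEUROG3 switches on further factors, among them NEUROD1, INSM1, PAX4 and NKX2-2, which take cells towards the hormone-producing fates, and PDX1, NKX6-1, MAFA, ISL1 and PAX6 keep mature islet cells in their state. In other tissues many of these developmental genes carry broad domains of K27me3, and a gene with both marks is called primed or bivalent.

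The 250 bases before the annotated 5′ end are shown for 5 of the genes, since these 5 hold several of the patterns of marks found: K4me3 alone, K27me3 around K4me3, K27me3 over the start, and K27me3 alone. *Isl1*, with both marks over its 5′ end in 11 mice, is not among them. The letters are those of the GRCm38.p6 assembly (mm10), 5′ to 3′ on the strand of the gene, with CpG dinucleotides in capitals.
Pdx1: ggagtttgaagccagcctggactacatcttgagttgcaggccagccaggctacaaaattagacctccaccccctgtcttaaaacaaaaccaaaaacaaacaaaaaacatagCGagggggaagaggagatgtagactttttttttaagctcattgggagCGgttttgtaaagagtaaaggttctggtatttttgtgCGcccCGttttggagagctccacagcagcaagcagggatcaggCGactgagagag
Nkx2-2: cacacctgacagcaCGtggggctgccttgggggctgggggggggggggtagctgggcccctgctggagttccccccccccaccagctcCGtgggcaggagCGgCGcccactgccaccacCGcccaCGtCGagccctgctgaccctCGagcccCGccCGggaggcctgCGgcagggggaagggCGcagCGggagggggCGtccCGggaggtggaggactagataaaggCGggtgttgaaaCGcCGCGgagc
Neurod1: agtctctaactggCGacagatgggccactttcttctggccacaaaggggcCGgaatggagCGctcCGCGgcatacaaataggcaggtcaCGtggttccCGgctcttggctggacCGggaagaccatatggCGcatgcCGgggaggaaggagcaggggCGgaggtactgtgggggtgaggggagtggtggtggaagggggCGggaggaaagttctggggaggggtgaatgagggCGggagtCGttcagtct
Nkx6-1: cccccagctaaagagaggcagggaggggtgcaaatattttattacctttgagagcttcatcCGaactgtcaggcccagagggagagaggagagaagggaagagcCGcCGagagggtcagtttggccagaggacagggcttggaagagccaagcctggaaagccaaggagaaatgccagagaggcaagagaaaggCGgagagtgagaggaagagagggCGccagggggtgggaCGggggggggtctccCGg
Neurog3: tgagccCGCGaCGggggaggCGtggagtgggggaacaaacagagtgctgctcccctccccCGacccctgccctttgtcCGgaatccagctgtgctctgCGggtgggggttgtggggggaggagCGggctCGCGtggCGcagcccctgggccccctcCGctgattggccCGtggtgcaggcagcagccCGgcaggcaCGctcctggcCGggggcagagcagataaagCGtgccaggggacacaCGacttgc
These windows are chr5:147269709-147269958 on the plus strand for *Pdx1*, chr2:147194244-147194493 on the minus strand for *Nkx2-2*, chr2:79456752-79457001 on the minus strand for *Neurod1*, chr5:101664997-101665246 on the minus strand for *Nkx6-1* and chr10:62132840-62133089 on the plus strand for *Neurog3*.
The number of CpG dinucleotides was 5 for *Pdx1*, 19 for *Nkx2-2*, 14 for *Neurod1*, 7 for *Nkx6-1* and 18 for *Neurog3*. Of all 20807 genes, 64.4% had at least as many as *Pdx1* in this window and 22.9% at least as many as *Nkx2-2*. Over the 10 factors the median was 16.5, and it was 8 over all genes. The order of the CpG counts was not the order of the marks, as *Pdx1* and *Nkx2-2* both had wide K4me3 and *Insm1*, with 35 CpG dinucleotides, had little.

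The deposited lists hold only positions of peaks, called in each mouse against its input, so the depth of the libraries is unknown. K27me3 lists held 21420 to 31274 peaks and K4me3 lists 17400 to 26081. No K27me3 peak was narrower than 5001 bp and no K4me3 peak narrower than 501 bp, so no domain can appear at a smaller width. WT replicate 2 had the fewest peaks of both marks. Of the 12115 genes with K4me3 near a TSS in all 12 mice, 18.3% also had K27me3 near a TSS in WT replicate 2. This share was 7.34% in KR replicate 1 and 1.39% to 4.74% in the other 10 mice. KR replicate 1 and WT replicate 2 therefore stand apart, and results that rest on them are given with and without them. The K27me3 lists of the 3 KR mice and of EZ replicate 2 held 10 to 35 peaks on chromosome X, against 5637 to 7367 in the other 8 mice. The K4me3 lists held 481 to 659 peaks on chromosome X in all 12 mice. The paper states that male and female mice were used for each genotype, but the sex of each mouse is not given here. The part of sex in the K27me3 difference was not tested. This difference covers all KR mice and 1 EZ mouse, and in comparisons with KR mice it cannot be told apart from genotype. All 10 factors are on autosomes, but K27me3 coverage of the autosomes also differed. It was 9.16% in EZ replicate 2 and 8.83% and 9.09% in KR replicates 2 and 3, against 5.53% to 7.58% in the other 8 mice. KR replicate 1, at 7.21%, lay within the range of those 8. In the tissue check, all 10 acinar markers examined had K4me3 near a TSS in all 12 mice, whereas of 12 islet hormone and secretory genes 10, *Ins1*, *Ins2*, *Gcg* and *Sst* among them, had K4me3 in none and *Pcsk1* alone had it in all. Of 5 leukocyte markers, 3 (*Ptprc*, *Cd3e* and *Cd68*) had K4me3 in WT replicate 2 and the same 3 in KR replicate 1, with summed lengths of 7210 and 7389 bp, against 3787 bp in KE replicate 1 and 169 to 894 bp in the other 9 mice, while *Itgam* and *Adgre1* had none in any mouse. The summed K4me3 of 4 endothelial markers was 5702 and 5904 bp in WT replicate 2 and KR replicate 1 and 1195 to 3338 bp in the other 10. That of the 10 acinar markers was lowest in these mice, at 41086 and 51447 bp against 58819 to 67285 bp. The part of these other cells in the values of WT replicate 2 and KR replicate 1 was not tested.

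The 10 genes fell into different states in the same tissue. *Pdx1* and *Nkx2-2* had wide K4me3 in all 12 mice and K27me3 in few. *Pax6* and *Isl1* had both marks within 3 kb of a TSS in all 12 mice, and *Neurod1* and *Nkx6-1* in 11 of 12. *Neurog3* had K27me3 in 11 mice and K4me3 in none. *Pax4* and *Mafa* had K4me3 in none and K27me3 in 4 and 3 mice, and *Insm1* had each mark in a minority. K27me3 was thus present near a TSS in all 12 mice at 4 of 10 factors, *Neurod1*, *Pax6*, *Nkx6-1* and *Isl1*, where 3.28% of all 20807 genes had it. K4me3 was present in all 12 mice at 4 of 10, *Pdx1*, *Pax6*, *Nkx2-2* and *Isl1*, against 58.2% of all genes. Both marks were present in all 12 mice at 2 of 10, *Pax6* and *Isl1*, against 0.524% of all genes. *Pax6* has 24 annotated start sites and *Isl1* 5. Thus 28424 and 12339 bp counted as near a TSS, against 6001 bp for a gene with 1 start site such as *Pdx1*. All these counts are descriptions of genes picked by name, with no test.

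**Figure D1:**
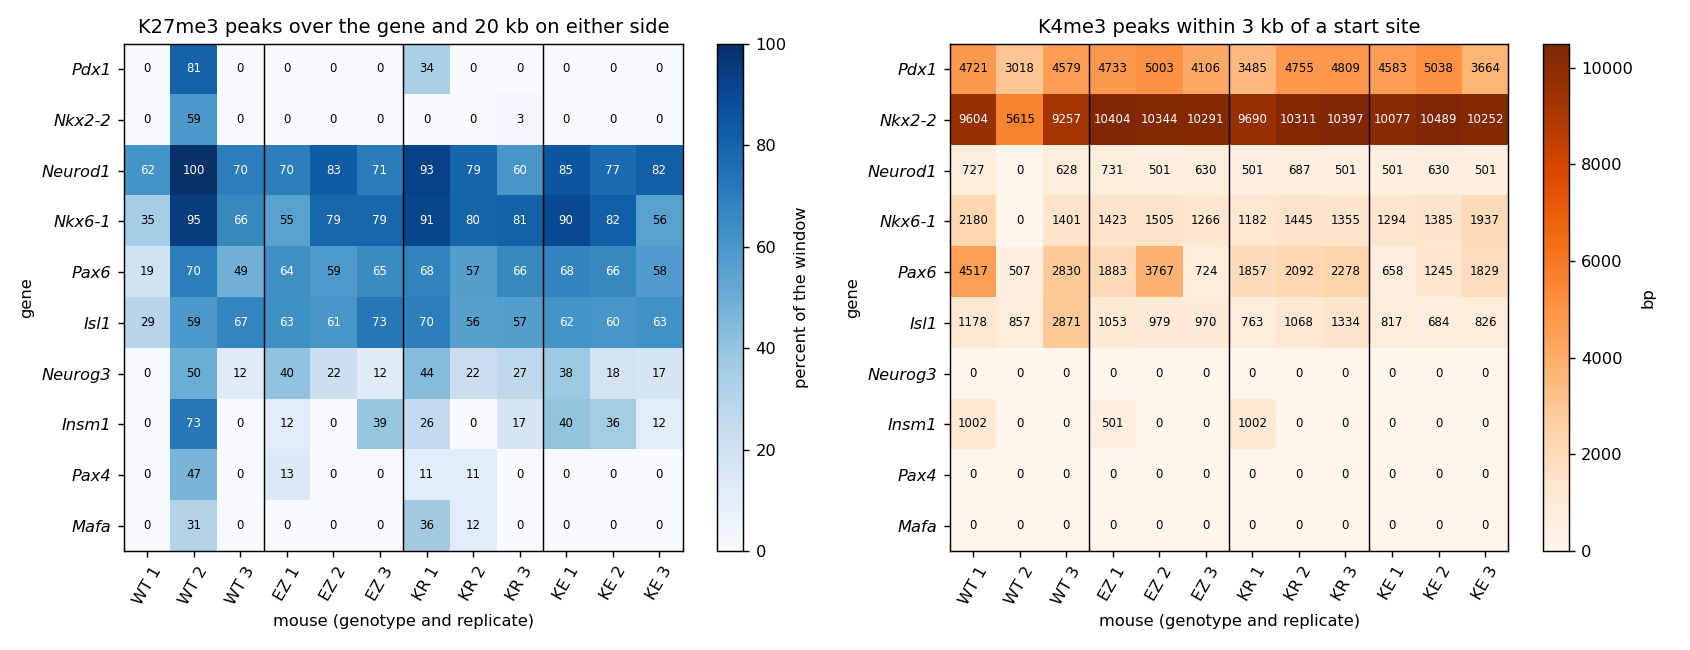
K27me3 coverage in percent of the gene and 20 kb on either side (left) and K4me3 peak length in bp within 3 kb of a TSS (right) for the 10 factors (rows) in each of the 12 mice (columns, grouped by genotype). *Neurod1*, *Nkx6-1*, *Pax6* and *Isl1* hold K27me3 in every mouse, *Nkx2-2* and *Pdx1* have the widest K4me3, and WT replicate 2 has K27me3 at all 10 genes.

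*Pdx1*, the homeobox factor of pancreatic progenitors, β cells and, at a lower level, acinar cells, had 4721, 3018 and 4579 bp of K4me3 within 3 kb of its TSS in WT replicates 1, 2 and 3. It had 4733, 5003 and 4106 bp in EZ, 3485, 4755 and 4809 bp in KR, and 4583, 5038 and 3664 bp in KE mice. The shortest K4me3 was in WT replicate 2 and KR replicate 1, and the genotypes overlapped. K27me3 covered 80.8% of the *Pdx1* window in WT replicate 2 and 33.5% in KR replicate 1, and no base of it in the other 10 mice. K4me3 covered the start and most of the short gene (chr5:147269959-147275848), and 4284 bp, chr5:147269942-147274225, were common to all 12 mice. The lncRNA gene *Plut* has a TSS within 3 kb, and peaks carry no strand that would part the pair.

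*Nkx2-2*, a homeobox factor needed for β cells, had the longest K4me3 of the 10 genes. The lengths were 9604, 5615 and 9257 bp in WT, 10404, 10344 and 10291 bp in EZ, 9690, 10311 and 10397 bp in KR, and 10077, 10489 and 10252 bp in KE mice. WT replicate 2 was far below the other 11 mice, and all 3 EZ values were above all 3 WT values. K4me3 lay in a narrower peak over the 5′ end and a wider one of 9062 to 10247 bp further down the gene, which in WT replicate 2 was in 2 pieces of at most 2532 bp. The median of the 12 mice was higher than that of 99.8% of all genes, on the scale of bp near any TSS, which favors genes with several start sites such as *Nkx2-2* with 4. K27me3 covered 59.5% of the window in WT replicate 2, 3.08% in KR replicate 3 and none in the other 10 mice. The antisense gene *Nkx2-2os* and another noncoding gene start within the same window.

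The 9 acinar identity factors used for comparison, such as *Ptf1a* and *Gata6*, showed the same combination as *Pdx1* and *Nkx2-2*. All 9 had K4me3 in 12 of 12 mice, with medians of 3459 to 14427 bp, and 5 of 9 had K27me3 near a TSS in WT replicate 2, 1 in KR replicate 1 and none in the other 10 mice. Of the 24 other regulators of the islet lineage on autosomes, 11 had K4me3 in all 12 mice and 3 (*Foxa1*, *Irx2* and *Lmx1a*) had K27me3 in all 12.

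*Neurod1*, the target of NEUROG3 that keeps the endocrine program running, was under K27me3 in every mouse. Coverage was 61.6%, 100% and 70.2% in WT, 69.9%, 82.9% and 70.9% in EZ, 92.8%, 79.3% and 60.5% in KR, and 85.2%, 77.3% and 82.0% in KE mice. All 6001 bp around its TSS were covered in all 12, and 13063 bp in 1 stretch were shared by all of them, chr2:79446848-79459910, which contains the whole gene (chr2:79452521-79456751). A narrow K4me3 peak of 501 to 768 bp was called in 11 mice and not in WT replicate 2. It did not lie at the start. Its common part ran from 2428 to 2872 bp downstream of the TSS, wholly in exonic sequence, 357 of 445 bp of it coding, and inside the K27me3 domain in each of the 11 mice. The first 250 coding bases of this part in the direction of transcription, chr2:79454074-79454323 on the minus strand of GRCm38.p6, are shown because they are where the marks coincide, with their 15 CpG dinucleotides in capitals.
Neurod1 K4me3 stretch: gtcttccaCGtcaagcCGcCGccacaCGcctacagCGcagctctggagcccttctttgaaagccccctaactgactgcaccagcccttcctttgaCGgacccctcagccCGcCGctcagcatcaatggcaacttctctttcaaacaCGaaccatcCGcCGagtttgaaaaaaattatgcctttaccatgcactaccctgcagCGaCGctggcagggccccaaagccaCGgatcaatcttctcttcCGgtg
The 250 bases before the 5′ end, shown above, held 14. *Cerkl* and a noncoding gene also have a TSS within 3 kb of that of *Neurod1*.

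*Nkx6-1*, a homeobox factor of β cells, had K27me3 coverage of 35.3%, 94.9% and 66.0% in WT, 55.3%, 79.2% and 79.2% in EZ, 91.0%, 79.7% and 80.9% in KR, and 89.9%, 82.0% and 55.7% in KE mice. WT replicates 1 and 2 were the lowest and the highest of the 12. K4me3 was 2180, 0 and 1401 bp in WT, 1423, 1505 and 1266 bp in EZ, 1182, 1445 and 1355 bp in KR, and 1294, 1385 and 1937 bp in KE mice. Here K4me3 lay over the 5′ end in all 11 mice that had it, and K27me3 covered the 5′ end in only 2, WT replicate 2 and KR replicate 1. The K27me3 domain was interrupted at the start in the other 10, so that the marks shared no base in WT replicate 1, EZ replicate 1 and KE replicate 1 and at most 662 bp in the rest apart from KR replicate 1 with 1182 bp. *Neurod1* and *Nkx6-1* thus both counted as holding both marks within 3 kb, with K4me3 inside the K27me3 domain at the first and mainly beside it at the second.

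**Figure D2:**
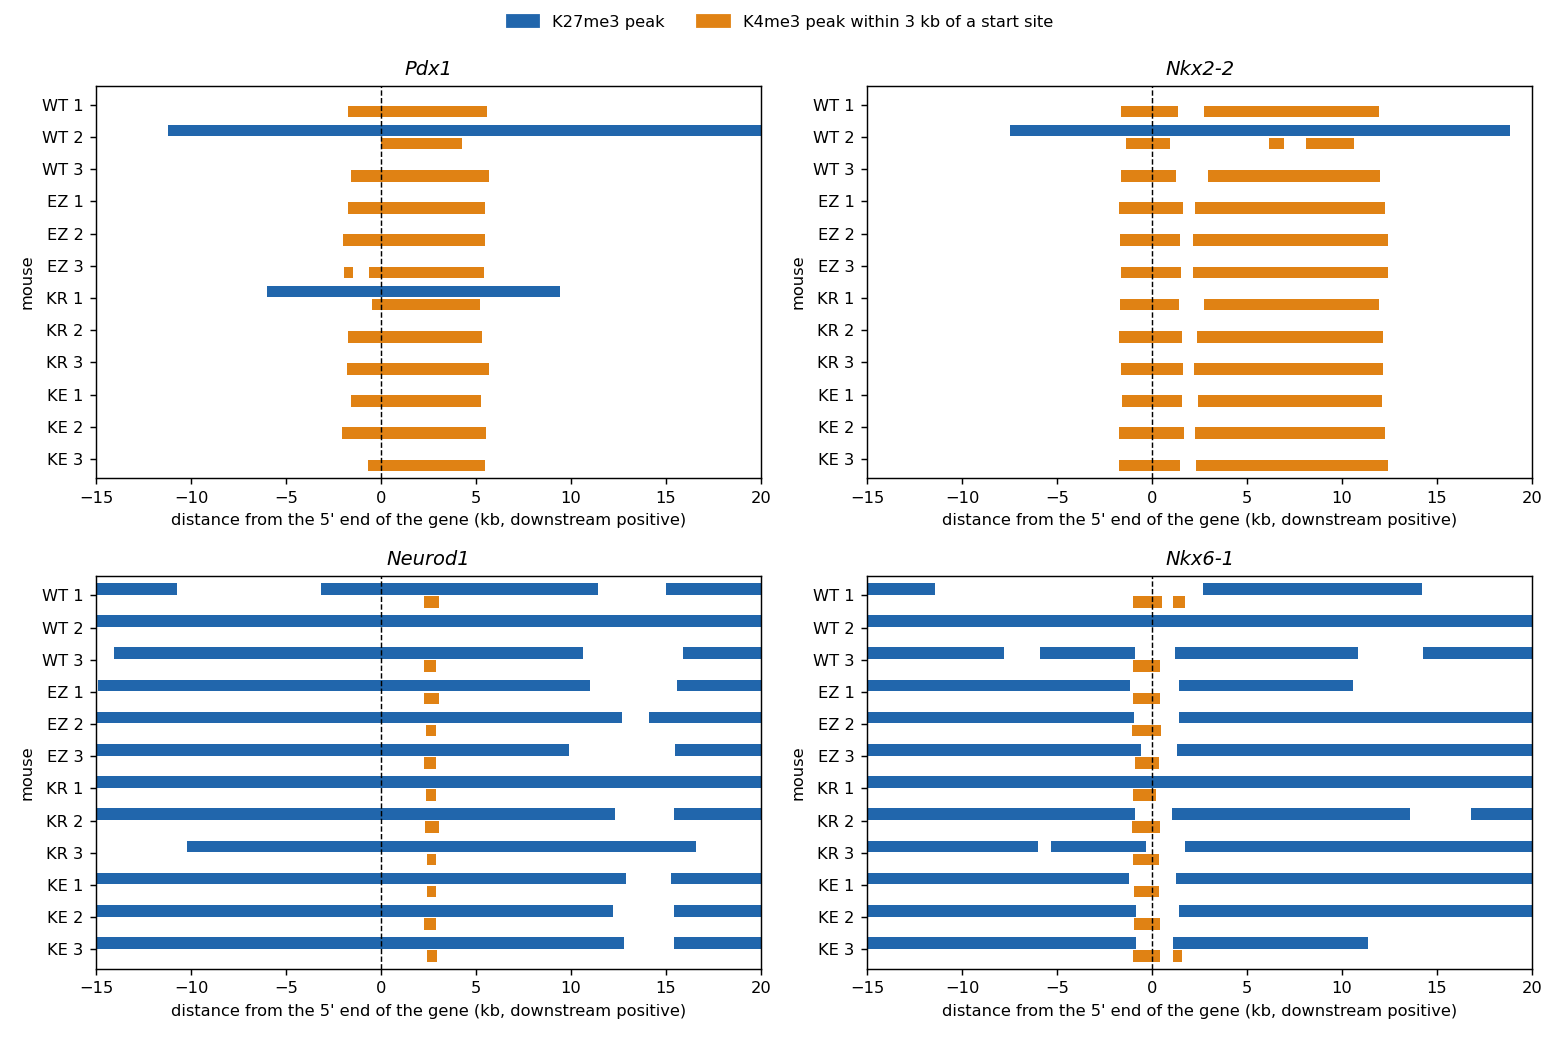
Position of K27me3 peaks (blue) and of K4me3 peaks near a TSS (orange) in kb from the 5′ end of *Pdx1*, *Nkx2-2*, *Neurod1* and *Nkx6-1*, with 1 line for each of the 12 mice and the 5′ end as a dashed line. K4me3 covers the start of *Pdx1*, *Nkx2-2* and *Nkx6-1*, K27me3 covers the whole of *Neurod1* with a small K4me3 peak within the gene, and at *Nkx6-1* K27me3 leaves the start free in 10 of 12 mice.

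*Pax6*, a paired-box factor of all islet cells and of eye and brain, had K27me3 coverage of 18.96%, 70.3% and 48.8% in WT, 63.6%, 58.7% and 64.9% in EZ, 68.2%, 57.0% and 66.3% in KR, and 67.6%, 66.4% and 58.0% in KE mice. WT replicate 1 was the lowest by a wide margin, and the other 11 mice lay between 48.8% and 70.3%. K4me3 was 4517, 507 and 2830 bp in WT, 1883, 3767 and 724 bp in EZ, 1857, 2092 and 2278 bp in KR, and 658, 1245 and 1829 bp in KE mice. WT replicate 1 was thus the highest for K4me3 and the lowest for K27me3, and WT replicate 2 the reverse. *Pax6* has 24 annotated start sites, and K4me3 never lay over the most 5′ of them. The noncoding gene *Pax6os1* also has a TSS within 3 kb of a *Pax6* start site. The stretch shared by 12 of 12 mice, chr2:105687816-105688943, lies in intronic sequence, 18916 to 20043 bp from the 5′ end. In all 12 mice some bases carried both marks, from 62 bp in WT replicate 1 to 3767 bp in EZ replicate 2.

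*Isl1*, a LIM homeobox factor of islet cells and several neuron types, had K27me3 coverage of 29.3%, 59.1% and 67.4% in WT, 63.0%, 60.5% and 72.6% in EZ, 69.8%, 56.1% and 56.7% in KR, and 61.7%, 60.3% and 62.8% in KE mice. WT replicate 1 was again the lowest. K4me3 was 1178, 857 and 2871 bp in WT, 1053, 979 and 970 bp in EZ, 763, 1068 and 1334 bp in KR, and 817, 684 and 826 bp in KE mice. It lay over the 5′ end in all 12, where chr13:116309596-116310119 was common to them. In 11 of 12 mice every K4me3 base near the TSS was also under K27me3, and in WT replicate 1 only 20 bp were.

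*Neurog3*, the factor that starts the endocrine program, had no K4me3 peak near any of its 3 start sites in any mouse. K27me3 covered 0%, 50.04% and 12% of its window in WT, 40.4%, 21.8% and 12% in EZ, 43.7%, 21.9% and 27.1% in KR, and 37.7%, 18.2% and 16.7% in KE mice. WT replicate 1 alone was at 0, and the genotypes overlapped. K27me3 lay within 3 kb of a TSS in the 11 other mice but over a TSS itself in 5, and the part shared by the 11 was a 193 bp stretch downstream of the gene.

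*Insm1*, a zinc finger factor induced by NEUROG3, had K27me3 coverage of 0%, 72.6% and 0% in WT, 11.6%, 0% and 39.0% in EZ, 26.1%, 0% and 16.6% in KR, and 40.1%, 35.9% and 11.6% in KE mice. KE was the only genotype with K27me3 in the *Insm1* window in all 3 mice, and its values overlapped those of every other genotype. In KE replicate 3 this was 1 peak at the smallest width of 5001 bp, from -14.6 to -9.6 kb of the 5′ end. K4me3 near the TSS was called in WT replicate 1, EZ replicate 1 and KR replicate 1, in peaks at the smallest width of 501 bp. *Pax4*, a paired-box factor of β and δ cell precursors, had K27me3 coverage of 46.5% in WT replicate 2, 13.3% in EZ replicate 1 and 10.6% in each of KR replicates 1 and 2. *Mafa*, an activator of insulin genes in mature β cells, had 31.3% in WT replicate 2, 36.0% in KR replicate 1 and 11.7% in KR replicate 2. Neither *Pax4* nor *Mafa* had K27me3 in any other mouse or K4me3 near a TSS in any mouse.

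The effect of the *Ezh2* deletion on K27me3 at these genes was compared over mice, K27me3 being the mark that EZH2 lays down. In neither EZ against WT nor KE against KR mice did the K27me3 values of any of the 10 factors separate the genotypes, and the adjusted p was 1 for each (exact permutation test, two-sided, smallest possible p 0.1 for 3 mice against 3, Benjamini-Hochberg over 11276 genes). Of all genes tested, 4.89% were higher and 0.284% lower without overlap in EZ than in WT, and 1.04% and 6.86% in KE than in KR. The median difference over the 10 factors was -5.01 percentage points for EZ minus WT and -3.86 for KE minus KR. Over all genes tested these medians were -1.63 and -0.93. Neither sign was stable: the median over the factors was 12.8 for EZ minus WT without WT replicate 2 (0 over all genes), and for KE minus KR it was -0.15 without KR replicate 1 (0 over all genes) and 6.36 after scaling each list to its autosomal coverage (0 over all genes). With that scaling, KE minus KR went from 3.94 to 25.7 percentage points at *Neurod1*, from 0.18 to 17.5 at *Pax6* and from -8.02 to 12.5 at *Nkx6-1*. Of all genes, 4.19% were then higher and 3.66% lower in KE than in KR mice, and no factor separated the genotypes. At *Pax6* the mean was 46.0% ± 25.8 in WT (SD, n = 3), 62.4% ± 3.28 in EZ, 63.8% ± 6.01 in KR and 64.0% ± 5.23 in KE mice. At *Neurod1* it was 77.3% ± 20.2 in WT, 74.6% ± 7.24 in EZ, 77.5% ± 16.2 in KR and 81.5% ± 3.97 in KE mice. At *Nkx6-1* it was 65.4% ± 29.8 in WT, 71.3% ± 13.8 in EZ, 83.9% ± 6.22 in KR and 75.9% ± 17.9 in KE mice. The WT standard deviation was larger than the difference between EZ and WT means at each of these 3 genes.

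WT replicate 2 bore on the comparison with WT. It had the highest K27me3 coverage of the 12 mice at 8 of the 10 factors, as it did at 52.8% of the genes with K27me3 in any mouse. Without it, *Pax6* was higher in every EZ mouse than in WT replicates 1 and 3, by 28.5 percentage points (62.4% against 33.9%), where 12% of all genes tested were. No factor was lower, against 2% of all genes. Without WT replicate 3, *Isl1* was higher in EZ mice, as were 8.66% of all genes, and without WT replicate 1 no factor separated from WT, where 6.39% of all genes were higher and 3.13% lower. In KE against KR mice, *Isl1* was higher without KR replicate 1, by 5.19 percentage points (61.6% against 56.4%), where 2.41% of all genes were. *Pax4* and *Mafa* were lower without KR replicate 3, as were 10.6% of all genes, and *Neurog3* was lower without KE replicate 1, as were 11.5%. *Insm1* was higher without KE replicate 3, as were 2.63%. Each of these calls rests on 2 mice of a genotype and was absent with all 3.

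**Figure D3:**
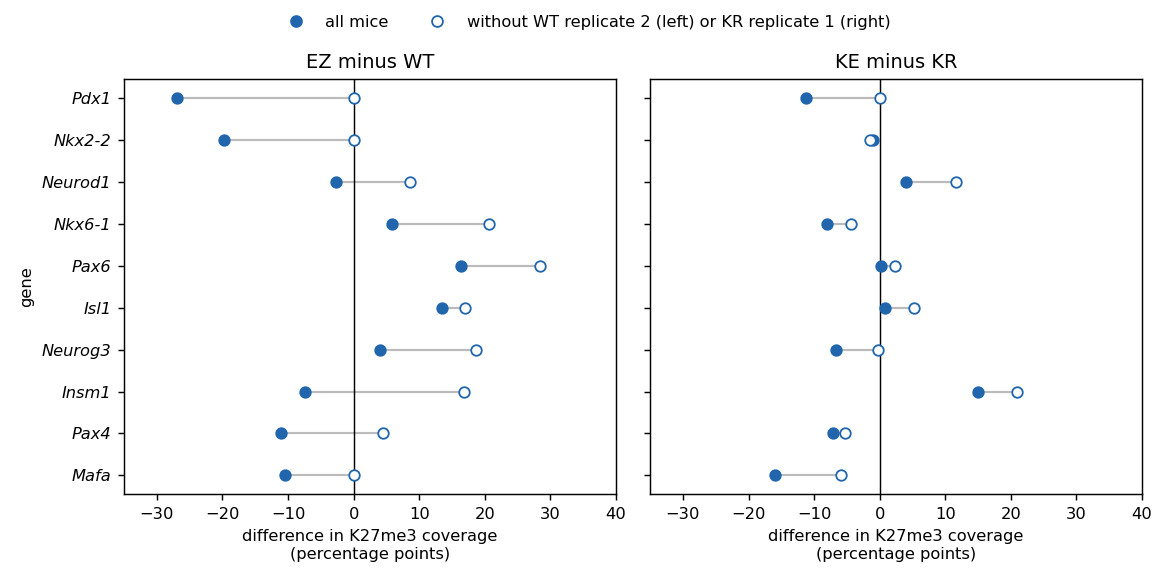
Difference in mean K27me3 coverage, in percentage points, for each factor (rows) between EZ and WT mice (left) and between KE and KR mice (right), with all mice (filled circles) and without WT replicate 2 on the left or KR replicate 1 on the right (open circles). Without WT replicate 2 every gene lies further to the right in EZ minus WT, and *Pdx1*, *Nkx2-2* and *Mafa* go from negative differences to 0.

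With both comparisons joined, the 6 mice with the *Ezh2* deletion were compared with the 6 without it, EZ against WT and KE against KR (exact permutation test over 400 arrangements, two-sided, smallest possible p 0.005). No gene of the 11276 passed an adjusted p of 0.05 for K27me3 (0%), and 2.54% had an unadjusted p below it. None of the 10 factors did. The smallest p among them was 0.2 for *Mafa*, with 13.2% without the deletion and 0% with it. Without WT replicate 2 and KR replicate 1 the first value was 2.93%, from KR replicate 2 alone (p = 0.4, exact permutation test).

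For K4me3, *Nkx2-2* was the one factor that separated EZ from WT mice. Its mean length was 8159 bp ± 2210 in WT (SD, n = 3), 10346 bp ± 56.5 in EZ, 10133 bp ± 386 in KR and 10273 bp ± 207 in KE mice. The difference of 2188 bp between EZ and WT had the smallest possible p of 0.1 and an adjusted p of 0.892 (exact permutation test, two-sided, Benjamini-Hochberg over 14175 genes). Without WT replicate 2, *Nkx2-2* still separated EZ from WT, by 916 bp. With only 1 kb on either side of each TSS counted, it did not. *Nkx2-2* was thus 1 of 10 factors higher in EZ mice, where the share of all genes was 9.09%. None of the 10 was lower, against 2.12% of all genes. After scaling to autosomal coverage 2.31% of all genes were higher and 13.3% lower in EZ mice, *Nkx2-2* still separated EZ from WT as higher, and *Isl1* was lower. *Neurog3*, *Pax4* and *Mafa*, with no K4me3 in any mouse, were not tested, which leaves 7 factors.

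*Pax6* was lower in KE than in KR mice, at 1244 bp ± 586 against 2076 bp ± 211 (SD, n = 3), a difference of -832 bp (exact permutation test, p = 0.1, adjusted p = 1), as were 2.26% of all genes. No factor was higher in KE than in KR mice, against 5.92%. With only 1 kb on either side of each TSS the values at *Pax6* overlapped, though the difference was -738 bp, and with only the 5′ end of the gene it was -167 bp and the call was lost. Without WT replicate 2, *Isl1* was also lower in EZ than in WT mice, as were 9.83% of all genes. Without KR replicate 1, *Isl1* was also lower in KE than in KR mice, as were 4.62% of all genes. Without EZ replicate 3 *Pdx1* was higher in EZ than in WT mice, as were 15.3% of all genes, and without WT replicate 2 its difference was -36 bp.

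With both comparisons joined, no gene of 14175 passed an adjusted p of 0.05 for K4me3 (0%), and 6.73% had an unadjusted p below it. *Nkx2-2* was the one factor with an unadjusted p below 0.05, with 10310 bp in the 6 mice with the *Ezh2* deletion and 9146 bp in the 6 without it (exact permutation test, p = 0.035, adjusted p = 0.634). Without WT replicate 2 the difference was 528 bp instead of 1164 bp (p = 0.035, exact permutation test), and without KR replicate 1 as well 417 bp (p = 0.09, exact permutation test). The joined difference came mainly from EZ minus WT, at 2188 bp. At *Nkx2-2*, KE minus KR was 140 bp (exact permutation test, p = 0.7) and the genotypes overlapped. It was -81.3 bp without KR replicate 1 and -67.3 bp after scaling to autosomal coverage.

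Of the 24 other islet regulators, K27me3 was higher without overlap in EZ than in WT mice at 2 (*Irx1* and *Irx2*) and lower in KE than in KR mice at 2 (*Rfx6* and *Myt1*). Of the 20 family relatives, *Pax1* and *Pax3* were higher in EZ than in WT mice, and none separated KE from KR. For K4me3, *Sox4* was higher and *Isl2* lower in EZ than in WT among the 24 regulators, and *Etv1* was lower in KE than in KR mice. Of the 20 family relatives, K4me3 separated none in EZ and was lower at 2 (*Neurog2* and *Lhx4*) in KE than in KR mice. Of the 9 acinar factors, K4me3 was higher at 3 in EZ than in WT mice (*Ptf1a*, *Gata4* and *Gata6*) and separated none in KE from KR, and K27me3 separated none in either comparison. Of all genes tested, K27me3 was higher in EZ than in WT mice at 4.89% and lower in KE than in KR mice at 6.86%. K4me3 was higher at 9.09% and lower at 2.12% in EZ than in WT mice, or 2.31% and 13.3% after scaling to autosomal coverage. It was lower in KE than in KR mice at 2.26%.

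**Figure D4:**
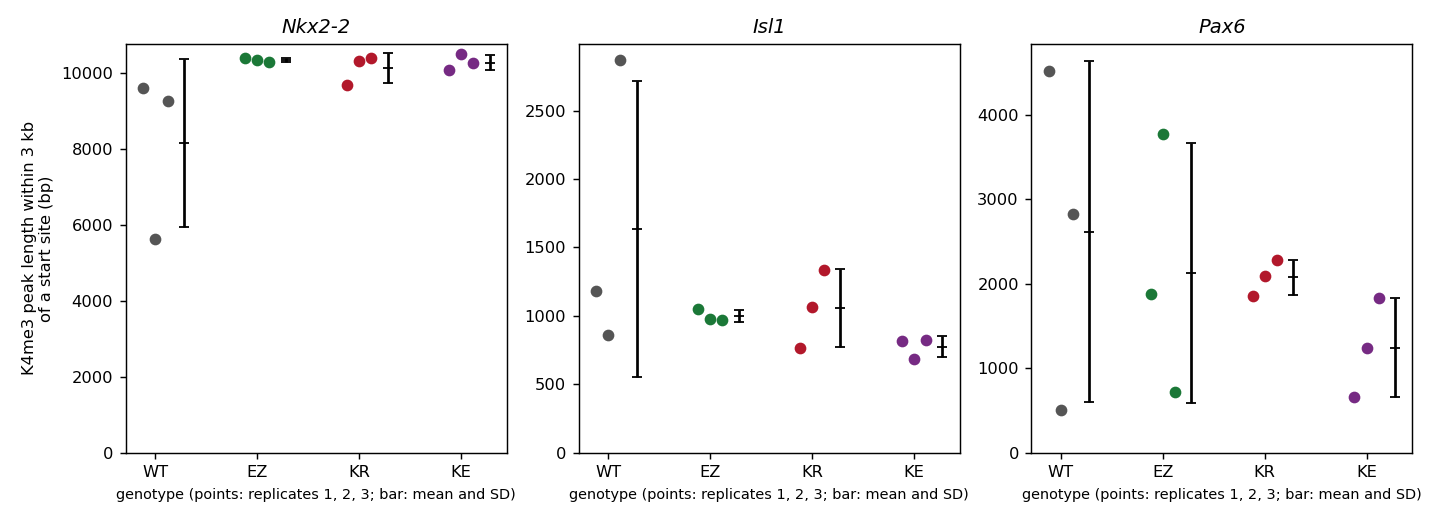
K4me3 peak length in bp within 3 kb of a TSS at *Nkx2-2*, *Isl1* and *Pax6* in the 3 mice of each genotype (points), with the mean and SD beside them. The 3 WT points of *Nkx2-2* lie below the 3 EZ points, and the WT points of *Isl1* and *Pax6* are spread the widest.

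The number of factors with K27me3 near a TSS was 6.33 ± 3.21 of 10 per mouse in WT (SD, n = 3 mice), 5.67 ± 0.577 in EZ, 7.00 ± 2.00 in KR and 5.67 ± 0.577 in KE mice, from 4 in WT replicate 1 to 10 in WT replicate 2. Without WT replicate 2 the WT mean was 4.5, below that of EZ mice. Without KR replicate 1 the KR mean was 6. K4me3 was near a TSS at 4 to 7 factors per mouse. Both marks were at 4 factors in every mouse except KR replicate 1 with 6. The 4 were *Neurod1*, *Pax6*, *Nkx6-1* and *Isl1* in all but WT replicate 2, where *Pdx1* and *Nkx2-2* stood in place of *Neurod1* and *Nkx6-1*, and KR replicate 1 added *Pdx1* and *Insm1*.

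Mean K27me3 coverage over the 10 factors ran from 14.5% in WT replicate 1 to 66.5% in WT replicate 2, with 47.2% in KR replicate 1 and 26.4% to 38.2% in the other 9 mice. The value in EZ replicate 2, whose list nearly lacked chromosome X, was 30.3%, beside 31.7% and 33.9% in EZ replicates 1 and 3. Over 20 family relatives without a textbook role in islets, such as *Pax3* and *Nkx2-5*, the same means ran from 25.0% in WT replicate 1 to 60.2% in WT replicate 2. Over the 24 other islet regulators they ran from 5.15% to 39.9% and over all genes from 4.65% to 9.73%, with the same mice at either end. Over the 9 acinar factors the mean was 28.7% in WT replicate 2, 4.91% in KR replicate 1 and 0% in the other 10 mice. Without these 2 mice the mean over the 10 factors was 14.5% to 38.2%, against 25.0% to 52.1% for the family relatives and 4.65% to 7.42% for all genes. K27me3 was near a TSS in all 12 mice at 8 of the 20 family relatives and 4 of the 10 factors, and K4me3 in all 12 at 2 and 4 of them. The leukocyte and endothelial markers given above had their longest K4me3 in the same WT replicate 2 and KR replicate 1, and their part in these differences was not tested.

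**Figure D5:**
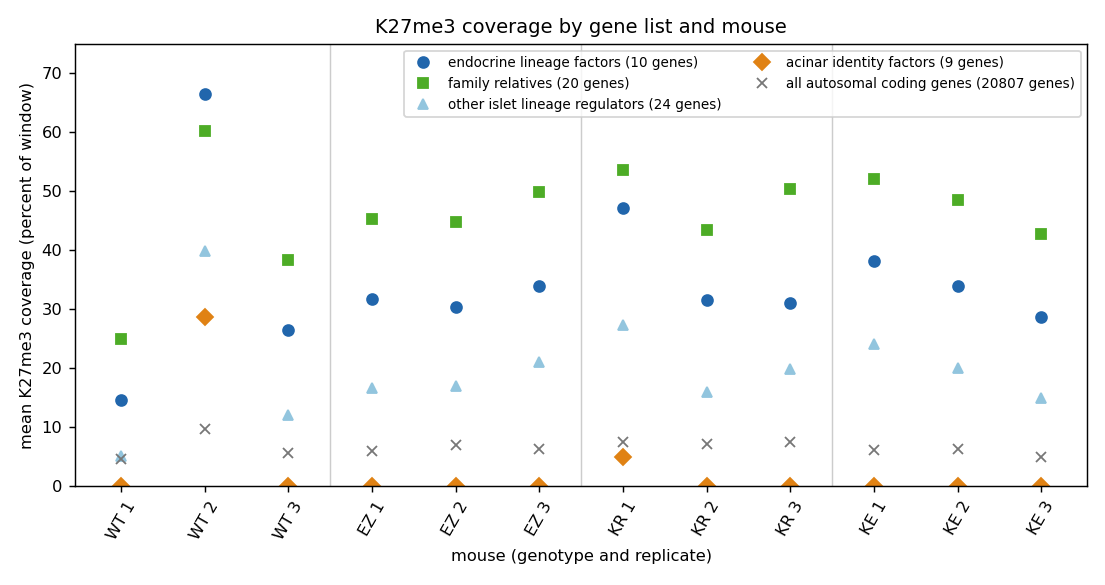
Mean K27me3 coverage, in percent of the gene and 20 kb on either side, over 5 lists of genes in each of the 12 mice. Lists other than the acinar factors are lowest in WT replicate 1 and highest in WT replicate 2, and the acinar factors are at 0 outside WT replicate 2 and KR replicate 1.

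The genes outside these lists whose K27me3 coverage over the 12 mice lay nearest to the mean of the 10 factors were *Ttll6*, *Saxo2*, *Ostm1*, *Pfpl* and *Egr4*, at a mean absolute distance of 3.35 to 4.63 percentage points. Of these, *Saxo2* and *Ostm1* had K4me3 near a TSS in all 12 mice, *Ttll6* in 11, and *Pfpl* and *Egr4* in none.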

How the data were processed

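K27me3 and K4me3 ChIP-Seq of whole pancreas from 12 mice was used; input samples had no list and were not used here. Per the labels and the study's methods, the authors aligned reads to mm10 with bowtie2, checked them with FastQC and used HOMER findPeaks (histone mode, with input as background) on each mouse (versions not given in the sources used here). The deposited lists give peak positions, and their score is the same for every peak, so depth is unknown and no interval could be given.

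Covered length was computed with Python 3.11.15 and numpy 2.4.6 from GENCODE vM21, and promoter letters were read from GRCm38.p6. Genes with a covered base in any mouse (11276 for K27me3, 14175 for K4me3) were tested by exact permutation over mice, and genotypes were called apart when their values did not overlap. The 3 mice of a genotype are labelled biological replicates. The code was tested on simulated peaks. An allele that KR and KE mice share and 1 marker gene are not reported here, and values that rest on them were left out. The factors, the comparison lists and the rule for the nearest genes were chosen with earlier results of these data known. Genes named from the lists beyond that rule were chosen after their values were seen. Same-numbered KR and KE mice deviated together in K4me3 (correlations of 0.549, 0.331 and 0.323), and pairing them changed no call there. In K27me3 of these mice and in both marks of WT and EZ mice, not all 3 correlations were over 0.1, and the numbers were not used as pairs. The alternatives were other windows and flanks, the 5′ end alone, at least 500 bp, merged peaks, equal numbers of the widest peaks, scaling to autosomal coverage, and each mouse left out.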

Additional observations from a re-analysis of the deposited data

How the results depend on the processing

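Which factors separate the genotypes depends on the mice and on the window. With each mouse left out in turn, the number of factors whose K27me3 values separate the groups ran from 0 to 1 for EZ minus WT and 0 to 2 for KE minus KR, where it was 0 with all mice. For K4me3 it ran from 1 to 2 for EZ minus WT and 1 to 2 for KE minus KR. For the calls absent with all mice, the shares of all genes are given above. WT replicate 2 and KR replicate 1 were also left out together, a choice made after seeing the data. The K27me3 counts were then 1 for EZ minus WT (*Pax6*, higher, as were 12% of all genes) and 1 for KE minus KR (*Isl1*, higher, as were 2.41%). The K4me3 counts were 2 and 2. In EZ minus WT *Nkx2-2* was higher, as were 12.3% of all genes, and *Isl1* lower, as were 9.83%. In KE minus KR *Pax6* and *Isl1* were lower, as were 4.62%. A flank of 50 kb gave 1 factor for KE minus KR (*Pax4*, lower). A 1 kb window for K4me3 gave 0 for EZ minus WT and 0 for KE minus KR. Only the 5′ end gave 0 for KE minus KR. Scaling to autosomal coverage gave 2 for EZ minus WT (*Nkx2-2* higher, *Isl1* lower). With the replicate block, factors whose 3 pairs all moved one way numbered 1 for K27me3 in EZ minus WT (*Isl1*) and 1 in KE minus KR (*Neurog3*), and 2 for K4me3 in EZ minus WT (*Neurod1* and *Nkx2-2*), and the other counts were those without it. With 3 pairs the smallest possible p of an exact permutation test is 0.25. No share over all genes is given here for the block, the 50 kb flank, the 1 kb window or the 5′ end alone. The counts under these settings therefore cannot be compared with all genes. The differences called with all mice, *Nkx2-2* in EZ minus WT and *Pax6* in KE minus KR for K4me3, kept their direction under every alternative run. Of the calls made only under an alternative, some changed sign under another. *Neurod1* K4me3 in EZ minus WT was -56.8 bp without WT replicate 2. *Insm1* K27me3 in KE minus KR was -2.96 percentage points for the gene body alone, and *Isl1* K27me3 in KE minus KR was -3.57 with a 50 kb flank. Others kept their sign, such as *Pax6* K27me3 in EZ minus WT, whose smallest difference was 2.83 percentage points, without WT replicate 1.

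The mean number of factors with K27me3 near a TSS per mouse was 5 in EZ and 3.67 in KE mice with a 1 kb window. For K4me3 it was 5 in EZ, 5.33 in KR and 4.67 in KE mice with 1 kb, 5.33, 5.67 and 5 with only the 5′ end, and 5, 4.67 and 4.67 with equal numbers of the widest peaks. For both marks it was 2.67 in WT and 2.33 in EZ and in KE mice with 1 kb, 4.33 in EZ mice with 10 kb, and 3.00 in WT, EZ and KE mice with only the 5′ end. It was 3.67 in WT mice with at least 500 bp, and 3.33 in WT, 3.00 in EZ, 3.00 in KR and 2.67 in KE mice with equal numbers of the widest peaks. A gene without a peak may still carry the mark below the caller's threshold or in a domain narrower than the smallest peak.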
